A study of Homo sapiens with 24 samples.

Results

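The comparison described here sets cells depleted of hnRNPC against cells depleted of hnRNPM, using 6 of the 24 libraries of a study of RBFOX2 and its partner proteins. hnRNPC siRNA_2 and hnRNPC siRNA_3 contributed 2 libraries each, with replicate numbers 1 and 3. hnRNPM siRNA_1 contributed 2 libraries with the same numbers. All 6 belong to the October set and are of SKOV3.ip1 cells, a derivative of the SKOV3 ovarian carcinoma line, grown in a DMEM and Ham F12 mixture with fetal bovine serum. Each siRNA was given at 100 nM with the lipid reagent Lipofectamine, and RNA was taken 72 h later. The 6 libraries are defined by the siRNA and replicate number in their titles. A month appears only in titles of mock libraries, so the set of each siRNA library is an assignment and not part of its title. Neither arm is a mock treatment, so both carry the effect of transfecting an siRNA, and a gene can differ because of the hnRNPC siRNAs, because of the hnRNPM siRNA, or both. The 2 libraries of the October mock set, which received Lipofectamine and no siRNA, are given beside the contrast to show where each arm lies. The design text calls the replicates biological. Only 1 hnRNPM siRNA was used in October, so a response to loss of HNRNPM and a side effect of that siRNA cannot be told apart within these libraries. A different sequence, hnRNPM siRNA_3, was used in a separate January set of 2 siRNA and 2 mock libraries, which the contrast does not use.

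hnRNPC and hnRNPM are abundant nuclear proteins that coat newly made RNA. hnRNPC binds tracts of uridines and keeps the splicing machinery away from cryptic exons, many of them in antisense Alu elements. hnRNPM binds GU-rich sequences, regulates alternative exons, and is found with RBFOX proteins in a large assembly of splicing regulators. Gene levels, which are what the table holds, do not show exon use.

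Values are TPM, a transcript abundance scaled for gene length and library, after division by a median-ratio scaling factor for each library, called scaled TPM. Where 4 values are given for the hnRNPC libraries they are siRNA_2 replicate 1, siRNA_2 replicate 3, siRNA_3 replicate 1 and siRNA_3 replicate 3, and other groups are given as replicate 1 and then replicate 3. Differences are hnRNPC minus hnRNPM depletion in log2(scaled TPM + 1), which understates the change of low genes. They average both hnRNPC siRNAs, with the replicate number as a block, and come from limma with Benjamini-Hochberg adjustment over all 16994 genes tested. A gene is said to rise or fall, or is called, where the adjusted p is under 0.05 and both hnRNPC siRNAs differ from hnRNPM siRNA_1 in the same direction. The number of reads behind the values is not known, since a TPM table keeps no depth. In such bulk RNA, fewer cells of a kind and less RNA per cell cannot be told apart.

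The scaling factors of the 6 libraries were between 0.811 and 1.02, genes at 1 TPM or more numbered 13729 to 14472, and small structured RNAs took 75.7% to 79.8% of the TPM. Markers of an epithelial carcinoma line were present, with KRT7 between 36.7 and 69.9, EPCAM between 23.9 and 31.5, PAX8 between 22.5 and 33.5 and ERBB2 between 474 and 644 scaled TPM. All 7 markers of leukocytes, endothelium and fibroblasts that were examined lay at or under 0.0301 scaled TPM, and CD3E was listed at 0. Across 11269 protein-coding genes the difference between arms was not ordered by GC content (Spearman rho -0.03), but it was within each replicate number and in opposite directions, 0.194 for replicate 1 and -0.213 for replicate 3. These rho values describe genes, which are not independent replicates, and their part in single results was not tested beyond a GC correction, which changed no call among the named genes when it was run with the block.

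The level of each targeted gene was low with its own siRNAs and near the mock level with the other. HNRNPC (ENSG00000092199) stood at 43.1, 45.5, 37.4 and 42.3 scaled TPM after hnRNPC depletion, against 129.9 and 146 after hnRNPM depletion and 128 and 166 in the mock libraries. The 4 hnRNPC libraries were the low ones and did not overlap with either other group. The difference was -1.69 (SE 0.0622, adjusted p = 1.11e-07). HNRNPM (ENSG00000099783) stood at 32.8, 32.5, 33.6 and 32.2 scaled TPM after hnRNPC depletion, against 8.20 and 9.39 after hnRNPM depletion and 42.6 and 33.0 in the mock libraries. Here the hnRNPM libraries were the low ones, again without overlap, and the difference was 1.79 (SE 0.101, adjusted p = 3.34e-06). In the January set HNRNPM was at 12.5 and 11.3 in hnRNPM siRNA_3 cells and 41.6 and 39.2 in their mock cells. HNRNPCP2, a processed copy of HNRNPC with 871 of its 881 bases identical to the HNRNPC transcript (98.9%), fell with its parent to 14.7, 16.9, 12.9 and 15.8 scaled TPM after hnRNPC depletion, against 56.4 and 76.2 after hnRNPM depletion. How reads that match both were assigned is not given in the sources used here, so the copy may carry reads of HNRNPC.

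**Figure D1:**
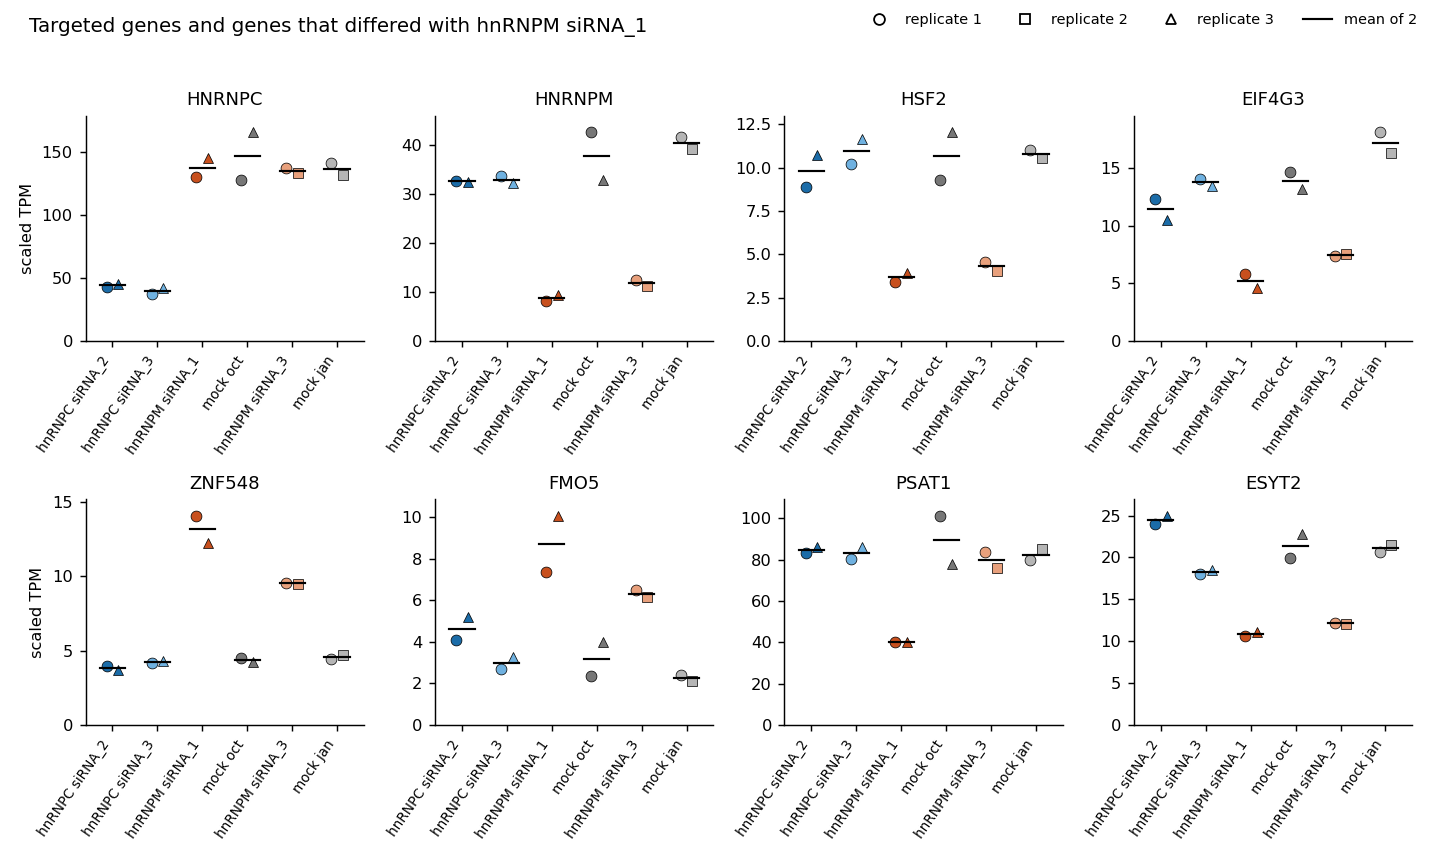
Scaled TPM (linear axis from 0) of the targeted genes and of 6 further genes in hnRNPC siRNA_2, hnRNPC siRNA_3, hnRNPM siRNA_1, mock oct, hnRNPM siRNA_3 and mock jan cells. Each symbol is 1 library, its shape gives the replicate number and the line is the mean of 2. HSF2, EIF4G3 and ESYT2 are low and ZNF548 and FMO5 high with both hnRNPM siRNAs, whereas PSAT1 is low with hnRNPM siRNA_1 and near its mock level with hnRNPM siRNA_3.

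Over all genes the arms differed widely but mostly by small amounts. Of 16994 genes tested, 2688 (15.8%) were called, 1323 (7.79%) higher and 1365 (8.03%) lower after hnRNPC than after hnRNPM depletion, and the median difference of all genes was 0.00. An unadjusted p under 0.05 was reached by 5152 genes. More than 2-fold differences were rare, with 68 genes higher and 38 lower. The count depended on single libraries. It was 1347 without hnRNPM siRNA_1 replicate 1, 645 without hnRNPM siRNA_1 replicate 3, and 1696 without hnRNPC siRNA_2 replicate 3. Without the replicate block it was 1397. With TPM as deposited, in place of scaled TPM, 1710 genes were called, of which 18.8% were higher, against 49.2% in the scaled values, and the median of all genes lay at -0.08. The hnRNPC siRNAs also differed from each other in 3273 genes (19.3%; siRNA_2 higher in 10.2% and lower in 9.01%), among them 884 of the 2688. In TPM as deposited, siRNA_2 was higher than siRNA_3 in 2915 genes and lower in 335 (89.7% of the calls higher), and the median of all genes lay at 0.15. Taken alone against hnRNPM siRNA_1, hnRNPC siRNA_2 gave 4254 genes (25%), 13% higher and 12% lower. hnRNPC siRNA_3 gave 1483 (8.73%), 4.05% higher and 4.67% lower, but 168 higher and 1758 lower with TPM as deposited (8.72% of the calls higher, median of all genes -0.16).

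Protein-coding genes made up most of the calls, and small structured RNAs most of the large differences. Among 11269 protein-coding genes, 1041 (9.24%) were higher and 1172 (10.4%) lower, 9 and 8 of them by more than 2-fold. Among 2276 pseudogenes, 111 were higher (4.88%) and 80 lower (3.51%). Among 1543 long non-coding and other genes, 67 were higher (4.34%) and 56 lower (3.63%). Among 1354 small structured RNA genes and their copies, 67 were higher (4.95%) and 36 lower (2.66%), and 47 and 22 of these passed 2-fold. The shares of these 3 types were under those of all genes tested, 7.79% higher and 8.03% lower.

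**Figure D2:**
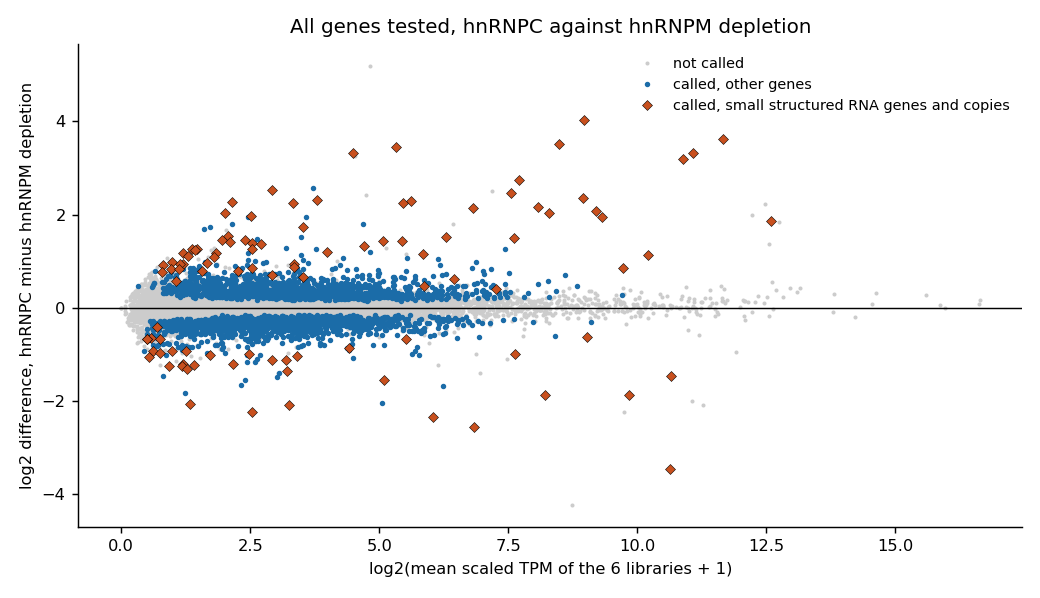
Log2 difference, hnRNPC minus hnRNPM depletion, against log2 of the mean scaled TPM of the 6 libraries plus 1, with 1 point per gene tested. Grey points are not called, blue points are called, and orange diamonds are called small structured RNA genes and copies. Most called genes lie within 1 log2 unit of 0, and the diamonds reach from -3.46 to 4.04.

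The mock libraries place the differences, with the reservation that both arms are set against the same 2 mock libraries, so the 2 comparisons are not independent of each other. Against mock oct, hnRNPC depletion gave 2267 called genes (13.3%), 835 higher (4.91%) and 1432 lower (8.43%). hnRNPM siRNA_1 gave 252 (1.48%), 58 higher (0.341%) and 194 lower (1.14%). Without the replicate block these counts were 1096 and 115. With TPM as deposited hnRNPC depletion gave 232 higher and 2925 lower (7.35% of the calls higher) with a median of -0.14 over all genes, and hnRNPM siRNA_1 gave 17 higher and 79 lower. The hnRNPC value averages 4 libraries and the hnRNPM value 2, so the counts do not compare the sizes of the responses.

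Some of the genes that separated the arms were also called, in the matching direction, with another hnRNPM siRNA. The January hnRNPM siRNA_3 libraries share no cells with the contrast, although all libraries share the fitted estimate of spread. Against mock jan, 118 genes (0.694%) were called there, 64 lower (0.377%) and 54 higher (0.318%), or 32 lower and 15 higher with TPM as deposited. Of the 1323 genes higher after hnRNPC than after hnRNPM depletion, 36 (2.72%) were called lower with hnRNPM siRNA_3, and 1 was called higher. Of the 1365 genes lower in the contrast, 29 (2.12%) were called higher with hnRNPM siRNA_3, and 7 were called lower. By sign alone, 54.0% of the 1323 genes lay lower in hnRNPM siRNA_3 than in mock jan cells, against 46.9% of all genes tested, and 62.9% of the 1365 genes lay higher, against 53.1% of all genes tested. The 65 genes with both calls included 55 protein-coding genes, the target HNRNPM among them. Of the 65, 42 were also called between hnRNPM siRNA_1 and mock oct, in either direction, and 18 between the hnRNPC siRNAs and mock oct. Of all genes tested 1.48% and 13.3% were called in these comparisons. Both reuse libraries of the contrast that chose the 65 genes, so the counts are partly fixed by that choice. PTGIS, counted in the 42, was lower with hnRNPM siRNA_1 (-0.42) but higher with hnRNPM siRNA_3 (0.33), each against its mock set. RNU6-37P, not counted in the 42, also had opposite signs (0.70 and -1.22). Some of the 65 hardly differed between hnRNPM siRNA_1 and mock oct, such as KRT19 (-0.01) and LIMA1 (0.03). A place among the 65 is therefore not by itself an effect shared by both hnRNPM siRNAs. Leaving out 1 of the 6 libraries cost between 5 and 24 of the 65 their call in the contrast, the most without hnRNPM siRNA_1 replicate 3. Without the block 18 lost it.

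HSF2, a transcription factor of the heat shock response, was among the clearest. It stood at 8.90, 10.7, 10.2 and 11.7 scaled TPM after hnRNPC depletion, against 3.41 and 3.94 after hnRNPM depletion and 9.30 and 12.0 in mock oct. The hnRNPM libraries were the low ones and the hnRNPC libraries lay around the mock values. The difference was 1.28 (SE 0.0588, adjusted p = 5.98e-07). In January HSF2 was at 4.55 and 4.07 in hnRNPM siRNA_3 cells, against 11.04 and 10.6 in mock jan, a difference of -1.15 (adjusted p = 1.83e-05). EIF4G3, a scaffold protein of the cap-binding complex of translation initiation, stood at 12.3, 10.5, 14.0 and 13.5 scaled TPM after hnRNPC depletion, against 5.86 and 4.59 after hnRNPM depletion and 14.6 and 13.2 in mock oct. Its difference was 1.13 (SE 0.0674, adjusted p = 5.41e-06), and with hnRNPM siRNA_3 it was at 7.40 and 7.55, against 18.1 and 16.3 in mock jan. It was the 1 called gene of 14 tested members of the EIF4F list (7.14%, beside 7.79% of all genes called higher), with a list median of -0.01. Without hnRNPM siRNA_1 replicate 1 there was 1 further member, called lower. ESYT2, a tether between the plasma membrane and the endoplasmic reticulum, stood at 24.01, 24.9, 18.02 and 18.5 scaled TPM after hnRNPC depletion, against 10.6 and 11.1 after hnRNPM depletion and 19.9 and 22.8 in mock oct, with a difference of 0.91 (SE 0.0509, adjusted p = 3.34e-06). With hnRNPM siRNA_3 it was at 12.2 and 12.1, against 20.7 and 21.5 in mock jan (-0.75, adjusted p = 0.000105). None of HSF2, EIF4G3 and ESYT2 lost its call when 1 library was left out.

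ZNF548, a zinc finger protein gene, showed the opposite pattern. It stood at 3.94, 3.69, 4.16 and 4.29 scaled TPM after hnRNPC depletion, against 14.0 and 12.3 after hnRNPM depletion and 4.51 and 4.25 in mock oct. The hnRNPM libraries were about 3 times as high as the other groups, and the difference was -1.49 (SE 0.0574, adjusted p = 1.11e-07). In January it was at 9.55 and 9.50 in hnRNPM siRNA_3 cells, against 4.41 and 4.69 in mock jan (0.92, adjusted p = 6.15e-05). FMO5, a flavin-containing monooxygenase, was at 4.07, 5.20, 2.68 and 3.26 scaled TPM after hnRNPC depletion, against 7.35 and 10.1 after hnRNPM depletion and 2.38 and 3.98 in mock oct. Its difference was -1.03 (SE 0.0755, adjusted p = 2.2e-05), and with hnRNPM siRNA_3 it was at 6.49 and 6.14, against 2.38 and 2.10 in mock jan. TMEM14D, annotated as a processed pseudogene, fell by 1.09 in the contrast, with 12.7, 12.9, 18.2 and 17.9 scaled TPM after hnRNPC depletion, against 29.4 and 38.0 after hnRNPM depletion. The protein-coding gene TMEM14B, of the same family, differed by -0.93, and how reads that match both were assigned is not given in the sources used here.

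Further genes of this set, chosen after their values were seen, belong to varied processes. CPD, a carboxypeptidase of the secretory pathway, differed by 0.92 in the contrast, with 106, 80.5, 78.4 and 74.2 scaled TPM after hnRNPC depletion, against 48.0 and 39.9 after hnRNPM depletion. MTMR3, a phosphatase of inositol lipids, differed by 0.83, with 12.2, 13.1, 12.1 and 12.7 scaled TPM against 6.64 and 6.59. AUH, a mitochondrial enzyme of leucine breakdown that also binds AU-rich RNA, differed by 0.72, and OAT, the mitochondrial ornithine aminotransferase, by 0.50. HEXA, a lysosomal hexosaminidase subunit, differed by -0.52, with 11.5, 9.25, 12.98 and 12.0 scaled TPM against 17.7 and 15.8. NDUFV2, a subunit of respiratory complex I, differed by -0.42. With hnRNPM siRNA_3 against mock jan the differences were -0.50 for CPD, -0.41 for MTMR3, -0.70 for AUH, -0.63 for OAT, 0.47 for HEXA and 0.48 for NDUFV2, all called. None of these 6 genes lost its call in the contrast when 1 library was left out.

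PSAT1, an enzyme of serine synthesis, showed that a large difference in the hnRNPM arm need not recur. It stood at 83.2, 86.3, 80.3 and 85.9 scaled TPM after hnRNPC depletion, against 39.9 and 40.2 after hnRNPM depletion and 101 and 77.7 in mock oct, a difference of 1.05 (SE 0.0883, adjusted p = 5.55e-05). The hnRNPM siRNA_1 libraries were the low ones, without overlap. With hnRNPM siRNA_3 PSAT1 was at 83.5 and 75.8, against 79.7 and 85.1 in mock jan, a difference of -0.05 (adjusted p = 0.904). The 2 hnRNPM siRNAs were used in different sets, and the difference between their effects was not tested.

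Other large differences lay with the hnRNPC arm. LINC00910, a long intergenic non-coding RNA, stood at 19.1, 12.5, 16.5 and 21.1 scaled TPM after hnRNPC depletion, against 1.87 and 2.20 after hnRNPM depletion and 1.17 and 1.82 in mock oct. It had the largest difference among the genes outside small structured RNAs that the ranking picked, 2.57 (SE 0.170, adjusted p = 1.07e-05), and the hnRNPC libraries were high without overlap. Copies of housekeeping genes were also among the genes named for their large differences. Of all pseudogenes, 4.88% of the 2276 tested were called higher and 3.51% lower, beside 7.79% and 8.03% of all genes, and HNRNPCP2, BNIP3P1 and TMEM14D were among the lower ones. The ferritin heavy chain copy FTH1P5 was at 15.0, 12.6, 15.1 and 17.1 scaled TPM after hnRNPC depletion, against 3.32 and 2.93 after hnRNPM depletion and 4.51 and 3.54 in mock oct (1.94, adjusted p = 0.000587). EEF1A1P22, a copy of the elongation factor gene EEF1A1, was at 7.60, 5.24, 7.33 and 7.32, against 1.73 and 1.88 after hnRNPM depletion (1.48, adjusted p = 0.000281), and EEF1A1P16 differed by 0.98. RPL12P8, a ribosomal protein copy, was at 17.2, 14.1, 16.1 and 16.3, against 6.01 and 6.07 (1.26, adjusted p = 0.0096), a call lost without hnRNPM siRNA_1 replicate 1 (adjusted p = 0.113) or replicate 3 (adjusted p = 0.0661). Such copies share sequence with their parents, and how reads were divided is not given in the sources used here.

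The genes of the ERK pathway and AP-1 list leaned to the hnRNPC side. ERK signaling induces immediate early transcription factors and, in turn, its own inhibitors. Of 21 tested members 10 rose after hnRNPC relative to hnRNPM depletion, none fell, and the median difference was 0.31, beside 7.79% called higher and a median of 0.00 over all genes tested. The median was 0.41 with hnRNPC siRNA_2 and 0.34 with hnRNPC siRNA_3 against hnRNPM siRNA_1, and 0.21 for hnRNPC depletion and -0.07 for hnRNPM siRNA_1 against mock oct. With hnRNPM siRNA_3 against mock jan it was 0.05. Of the 21 members 7 differed between the hnRNPC siRNAs, beside 19.3% of all genes tested. The members called in the contrast were FOS, EGR1, DUSP6, SPRY2, ETV4, DUSP5, MYC, ETV5, SPRY4 and SPRED1. DUSP6, a phosphatase that inactivates ERK, stood at 5.60, 4.66, 7.24 and 4.98 scaled TPM after hnRNPC depletion, against 2.33 and 2.09 after hnRNPM depletion and 2.37 and 2.45 in mock oct. The hnRNPC libraries were high without overlap (1.03, SE 0.0929, adjusted p = 8.16e-05). SPRY2, another feedback inhibitor, was at 6.91, 7.88, 9.06 and 8.35, against 4.596 and 4.33 (0.72, adjusted p = 0.000108). Neither lost its call when 1 library was left out.

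FOS, an AP-1 subunit, depended on the replicate number. It stood at 27.5, 3.45, 21.1 and 3.19 scaled TPM after hnRNPC depletion, against 4.83 and 1.30 after hnRNPM depletion and 1.79 and 0.511 in mock oct. All groups were higher in replicate 1 than in replicate 3, the hnRNPC and hnRNPM ranges overlapped, and within each replicate number the hnRNPC libraries were the higher ones. Its difference was 1.51 (SE 0.324, adjusted p = 0.00982) and lost its call without hnRNPM siRNA_1 replicate 1 (1.19, adjusted p = 0.134) or without the replicate block (adjusted p = 0.21). EGR1, an immediate early zinc finger factor, was at 10.5, 0.854, 11.4 and 1.32 scaled TPM, against 2.15 and 0.532 after hnRNPM depletion (1.18, adjusted p = 0.049). Its call was lost in turn without replicate 1 of hnRNPC siRNA_2 (adjusted p = 0.129), replicate 1 of hnRNPC siRNA_3 (adjusted p = 0.155), and either hnRNPM library (adjusted p = 0.384 and 0.111), and without the block (adjusted p = 0.307). Over the list, 6 members were called without hnRNPM siRNA_1 replicate 1, 7 without the block and 5 with TPM as deposited.

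**Figure D3:**
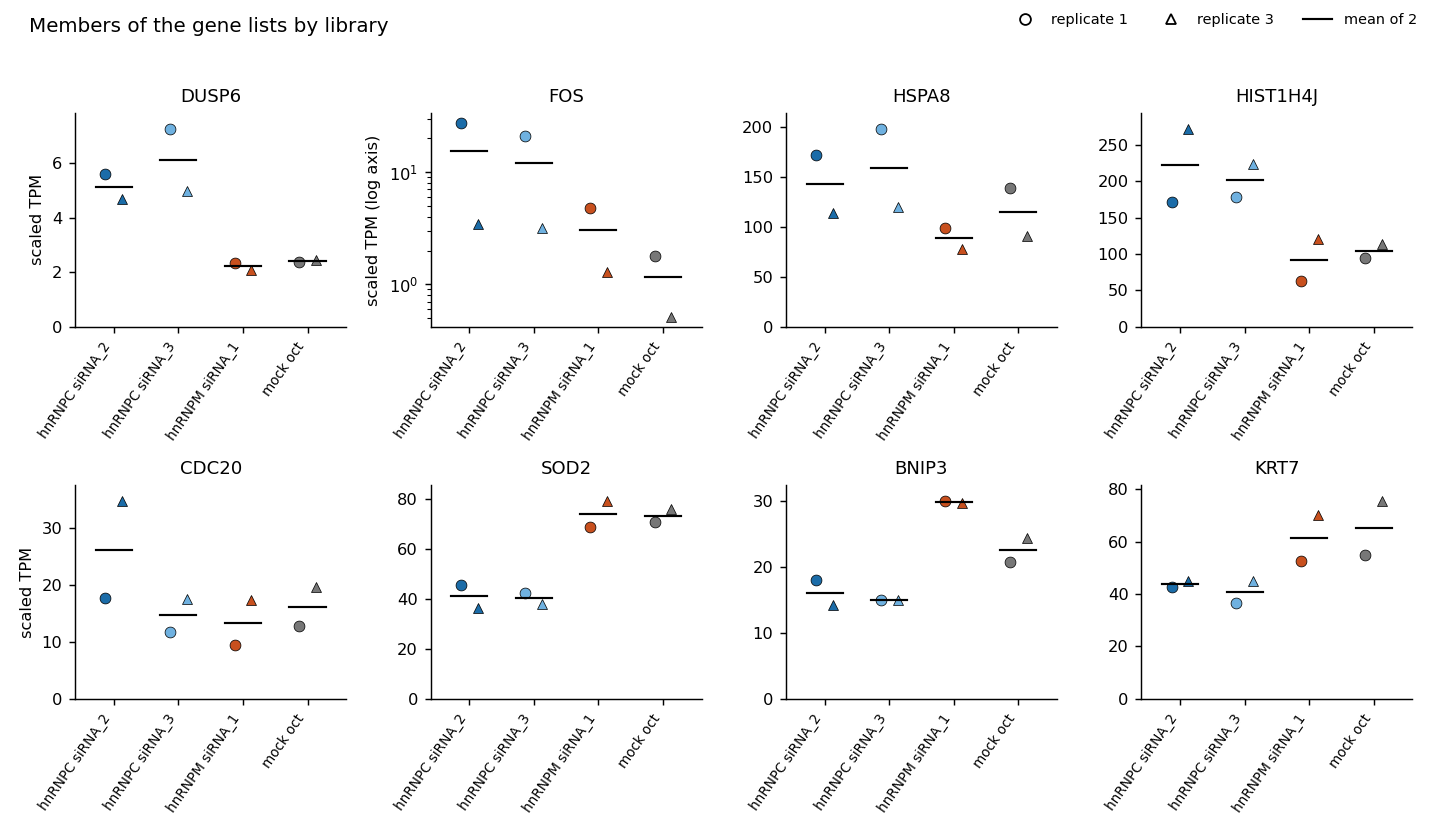
Scaled TPM of 8 list members in hnRNPC siRNA_2, hnRNPC siRNA_3, hnRNPM siRNA_1 and mock oct cells, with 1 symbol per library (circle, replicate 1; triangle, replicate 3) and a line at the mean of 2. Axes start at 0 except for FOS, which has a log axis. FOS differs more between replicate numbers than between the hnRNPC and hnRNPM groups, while DUSP6, HIST1H4J, SOD2, BNIP3 and KRT7 show no overlap between the hnRNPC and hnRNPM libraries.

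Heat shock genes, which encode chaperones and their regulators, also lay higher after hnRNPC than after hnRNPM depletion. Of 18 tested members 9 rose (50%, beside 7.79% of all genes tested), none fell, and the median was 0.32. Against mock oct the median was 0.01 for hnRNPC depletion and -0.21 for hnRNPM siRNA_1, and with hnRNPM siRNA_3 against mock jan it was -0.11. HSF2, described above, was the largest. HSPA8, the constitutive HSP70 chaperone, stood at 172, 114, 198 and 119.8 scaled TPM after hnRNPC depletion, against 99.2 and 78.1 after hnRNPM depletion and 139 and 90.9 in mock oct. Every group was higher in replicate 1, and the hnRNPC and hnRNPM libraries did not overlap. Its difference was 0.73 (SE 0.0981, adjusted p = 0.000755), and without the replicate block its call was lost (adjusted p = 0.0893). HSPH1, an HSP110 co-chaperone, was at 18.1, 23.4, 16.2 and 16.2, against 10.7 and 12.6 (0.61, adjusted p = 0.0011), and HSPA1A, the inducible HSP70, was at 22.9, 13.02, 19.5 and 9.70, against 11.2 and 8.72 (0.60, adjusted p = 0.00479), with overlapping groups. HSPE1, DNAJA1, DNAJB1, DNAJB4 and HSPA9 were the other called members, with differences between 0.23 and 0.41. Without hnRNPM siRNA_1 replicate 1 there were 5 called members and the median was 0.17. HSPA1A then had an adjusted p of 0.0895. Without the block 6 were called, HSPA1A not among them (adjusted p = 0.219), and with TPM as deposited 5.

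Heat shock factors bind arrays of the unit GAANNTTC or TTCNNGAA, written here with inverted GAA blocks spaced by 2 bases. The 250 bases before the transcript start of HSPA8 are shown because HSPA8 held more such units than any other list member. They come from RefSeq, build GRCh38.p14, chr11:123062137-123062386, minus strand, with the units in capitals, and overlapping units are drawn as 1 run.
HSPA8: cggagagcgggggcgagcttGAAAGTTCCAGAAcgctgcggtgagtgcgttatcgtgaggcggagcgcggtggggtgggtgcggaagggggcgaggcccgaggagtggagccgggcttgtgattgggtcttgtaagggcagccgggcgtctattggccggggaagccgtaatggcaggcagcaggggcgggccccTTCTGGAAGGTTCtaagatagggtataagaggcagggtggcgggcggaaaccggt
Searched on both strands, 5 of 17 heat shock genes with a promoter in the RefSeq table held at least 1 unit (HSPA8 with 4 units, and DNAJA1, HSPA1A, HSPA1B and HSPB1 with 1 each). Over all 35116 promoters, 11.6% held at least 1 and 1.32% at least 2. A match describes letters in this window and is not a binding site by itself.

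Replication-dependent histone genes, whose messages lack a poly(A) tail and are captured in ribodepleted total RNA, were added as a list after the values were seen. Of 86 such genes measured, 69 were tested. Of these 28 rose after hnRNPC relative to hnRNPM depletion (40.6%, beside 7.79% of all genes tested), none fell, and the median was 0.33. The filter on low values left out the other 17 genes. Against mock oct the median was 0.18 for hnRNPC depletion, with 13 called higher, and -0.16 for hnRNPM siRNA_1, with none called (limma). With hnRNPM siRNA_3 against mock jan it was 0.01. HIST1H4J stood at 172, 272, 179 and 224 scaled TPM after hnRNPC depletion, against 62.4 and 121 after hnRNPM depletion and 94.2 and 113 in mock oct. The hnRNPC libraries were high without overlap (1.25, SE 0.169, adjusted p = 0.000781). HIST1H3A was at 50.6, 68.3, 49.6 and 51.2, against 21.2 and 30.5 (1.07, adjusted p = 0.000192), and HIST1H3C at 138, 227, 131 and 166, against 64.2 and 126 (0.84, adjusted p = 0.000644). HIST1H3C lost its call without the block (adjusted p = 0.111). In HIST1H4J and HIST1H3C the replicate 3 libraries were above the replicate 1 libraries of the same siRNA in each of the 3 siRNA groups. The count of called histone genes fell to 7 without hnRNPM siRNA_1 replicate 1, to 4 without the block and to 16 with TPM as deposited. Histone genes are close copies of each other, and how reads that match several were assigned is not given in the sources used here.

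Cell cycle genes had the same lean, but those of G2/M depended more on the siRNA. Of 30 tested genes of the G1/S transition and DNA replication, 9 rose (30%) and 2 fell (6.67%), with a median of 0.18. Over all genes tested the shares were 7.79% and 8.03%. Against mock oct the median was 0.04 for hnRNPC depletion, with 5 called higher and 4 lower, and -0.15 for hnRNPM siRNA_1, and with hnRNPM siRNA_3 against mock jan it was 0.15, of opposite sign. MCM7, a subunit of the replicative helicase, was at 14.2, 18.3, 14.3 and 14.3 scaled TPM after hnRNPC depletion, against 8.90 and 11.4 after hnRNPM depletion (0.54, adjusted p = 0.00208). PCNA, the polymerase clamp, was at 28.8, 29.4, 32.0 and 28.99, against 21.6 and 22.4 (0.42, adjusted p = 0.000745). Both sets of values were without overlap, and PCNA was not called with TPM as deposited (0.31, adjusted p = 0.0619). POLA1 and RFC2 were the members that fell, by 0.30 and 0.28. Without hnRNPM siRNA_1 replicate 1 the calls were 4 higher and 2 lower, without replicate 3 they were 6 higher and 0 lower, without the block 5 higher and 0 lower, and with TPM as deposited 4 higher and 2 lower. The count of lower genes was 1 without hnRNPC siRNA_2 replicate 1, hnRNPC siRNA_2 replicate 3 or hnRNPC siRNA_3 replicate 3. Of 31 tested G2/M and mitosis genes 12 rose (38.7%) and none fell, with a median of 0.26. However, 17 of the 31 differed between the hnRNPC siRNAs, against 5 of the 30 G1/S genes, beside 19.3% of all genes tested. The median was -0.11 for hnRNPC depletion and -0.34 for hnRNPM siRNA_1 against mock oct, each with 2 called lower and 0 higher by limma, and 0.00 with hnRNPM siRNA_3 against mock jan. Alone against hnRNPM siRNA_1, hnRNPC siRNA_2 gave 23 called higher with a median of 0.44, and hnRNPC siRNA_3 gave none higher and 1 lower with a median of 0.06. CDC20, an activator of the anaphase-promoting complex, was at 17.6, 34.7, 11.8 and 17.6, against 9.46 and 17.2 after hnRNPM depletion and 12.8 and 19.5 in mock oct, with overlapping groups (0.53, adjusted p = 0.00198, or adjusted p = 0.24 without the block). The G2/M count was 5 and 2 without hnRNPM siRNA_1 replicate 1 or replicate 3, 6 without hnRNPC siRNA_2 replicate 3, 8 without hnRNPC siRNA_3 replicate 3, 2 with TPM as deposited, and 0 without the block.

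Genes of hypoxia and glycolysis, many of them targets of HIF-1, leaned to the hnRNPM side. Of 30 tested members 11 fell after hnRNPC relative to hnRNPM depletion and none rose, with a median of -0.16, beside 8.03% called lower over all genes tested. Against mock oct the median was -0.15 for hnRNPC depletion and 0.09 for hnRNPM siRNA_1. With hnRNPM siRNA_3 against mock jan it was -0.09, opposite in sign to hnRNPM siRNA_1. BNIP3, a mitophagy receptor, stood at 18.01, 14.2, 15.0 and 15.0 scaled TPM after hnRNPC depletion, against 30.05 and 29.7 after hnRNPM depletion and 20.8 and 24.4 in mock oct. The hnRNPC libraries were the low ones without overlap, the hnRNPM libraries the high ones, and the difference was -0.90 (SE 0.0932, adjusted p = 0.000165). With hnRNPM siRNA_3 against mock jan BNIP3 differed by -0.26 (adjusted p = 0.359), and with hnRNPM siRNA_1 against mock oct by 0.39 (adjusted p = 0.11). Its processed copy BNIP3P1 differed by -0.76. EGLN1, the oxygen sensor that marks HIF subunits for destruction, was at 9.67, 9.16, 11.1 and 11.9, against 14.6 and 15.2 (-0.48, adjusted p = 0.000956). ENO2, EGLN3, PFKFB3, ALDOC, HK2, PDK1, PFKP, P4HA1 and VEGFA were the other called members, between -0.47 and -0.26. BNIP3 and EGLN1 kept their calls with each library left out, but the count of the list was 6 and 3 without hnRNPM siRNA_1 replicate 1 or replicate 3, and 7 without hnRNPC siRNA_2 replicate 3 or hnRNPC siRNA_3 replicate 1. Without hnRNPC siRNA_2 replicate 1 it was 12 lower and 1 higher.

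Epithelial genes were also lower. Of 18 tested members 8 fell (44.4%, beside 8.03% of all genes tested), none rose, and the median was -0.26. Against mock oct it was -0.18 for hnRNPC depletion and 0.03 for hnRNPM siRNA_1, and with hnRNPM siRNA_3 against mock jan 0.02. KRT7, a keratin of simple epithelia, stood at 42.8, 44.9, 36.7 and 44.8 scaled TPM after hnRNPC depletion, against 52.5 and 69.9 after hnRNPM depletion and 54.7 and 75.5 in mock oct, where the hnRNPC libraries were the low ones (-0.51, SE 0.0757, adjusted p = 0.0013). The other called members were MAL2, CDS1, OCLN, KRT19, OVOL2, GRHL1 and TJP1, and 10 of the 18 differed between the hnRNPC siRNAs. MAL2, a protein of apical transport, was at 32.4, 35.7, 52.3 and 67.0, against 60.9 and 68.0, so that only the siRNA_2 libraries stood apart from hnRNPM. KRT19 was at 49.0, 65.0, 35.5 and 34.8, against 51.7 and 68.6, and in it the siRNA_3 libraries were the low ones. Without hnRNPM siRNA_1 replicate 3 the count was 4. Of 21 tested mesenchymal genes 3 rose (14.3%, beside 7.79% of all genes) and 1 fell (4.76%). The median of 0.03 turned to -0.08 with TPM as deposited. The calls were 2 higher and 0 lower without hnRNPM siRNA_1 replicate 1, and 2 higher and 2 lower without hnRNPC siRNA_2 replicate 3 or hnRNPC siRNA_3 replicate 1. Without either mock oct library they were 3 higher and 2 lower, without the block 2 and 0, and with TPM as deposited 1 and 2.

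Among 21 tested NF-kB targets and inflammatory genes 4 fell and 1 rose (4.76%), with a median of -0.16. Over all genes tested 8.03% fell and 7.79% rose. The share of the list that fell was above that of all genes, and the share that rose was below it. Against mock oct the median was -0.28 for hnRNPC depletion and -0.07 for hnRNPM siRNA_1, and with hnRNPM siRNA_3 against mock jan it was 0.06. SOD2, the mitochondrial superoxide dismutase, stood at 45.8, 36.6, 42.4 and 38.2 scaled TPM after hnRNPC depletion, against 69.1 and 79.4 after hnRNPM depletion and 70.9 and 76.0 in mock oct. The hnRNPM libraries lay at the mock level and the hnRNPC libraries below it (-0.85, SE 0.0955, adjusted p = 0.000277). IL8, a neutrophil chemokine, was at 7.13, 8.44, 6.10 and 9.44, against 10.4 and 19.6 (-0.82, adjusted p = 0.00498), and lost its call without hnRNPM siRNA_1 replicate 3 (adjusted p = 0.105) and without the block (adjusted p = 0.103). IL6 and BIRC3 were the other genes that fell, by 0.58 and 0.44. NFKBIZ, an inhibitor-like regulator of NF-kB, was at 11.9, 4.82, 10.2 and 3.35, against 3.88 and 3.48 (0.73, adjusted p = 0.0433). The groups overlapped, and without hnRNPM siRNA_1 replicate 1 its difference was 0.35 (adjusted p = 0.479). It also lost its call without replicate 1 of hnRNPC siRNA_2 (adjusted p = 0.115) or of hnRNPC siRNA_3 (adjusted p = 0.131), and without the block (adjusted p = 0.148). No member was called higher and 4 were called lower by limma with TPM as deposited. Only 1 member of the list was called lower without hnRNPM siRNA_1 replicate 3 and 1 without the block. Outside the list, the cytokine IL32 was at 3.39, 2.97, 5.36 and 5.67, against 10.1 and 16.3 after hnRNPM depletion and 9.49 and 9.81 in mock oct (-1.41, adjusted p = 0.000127), low in all 4 hnRNPC libraries.

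**Figure D4:**
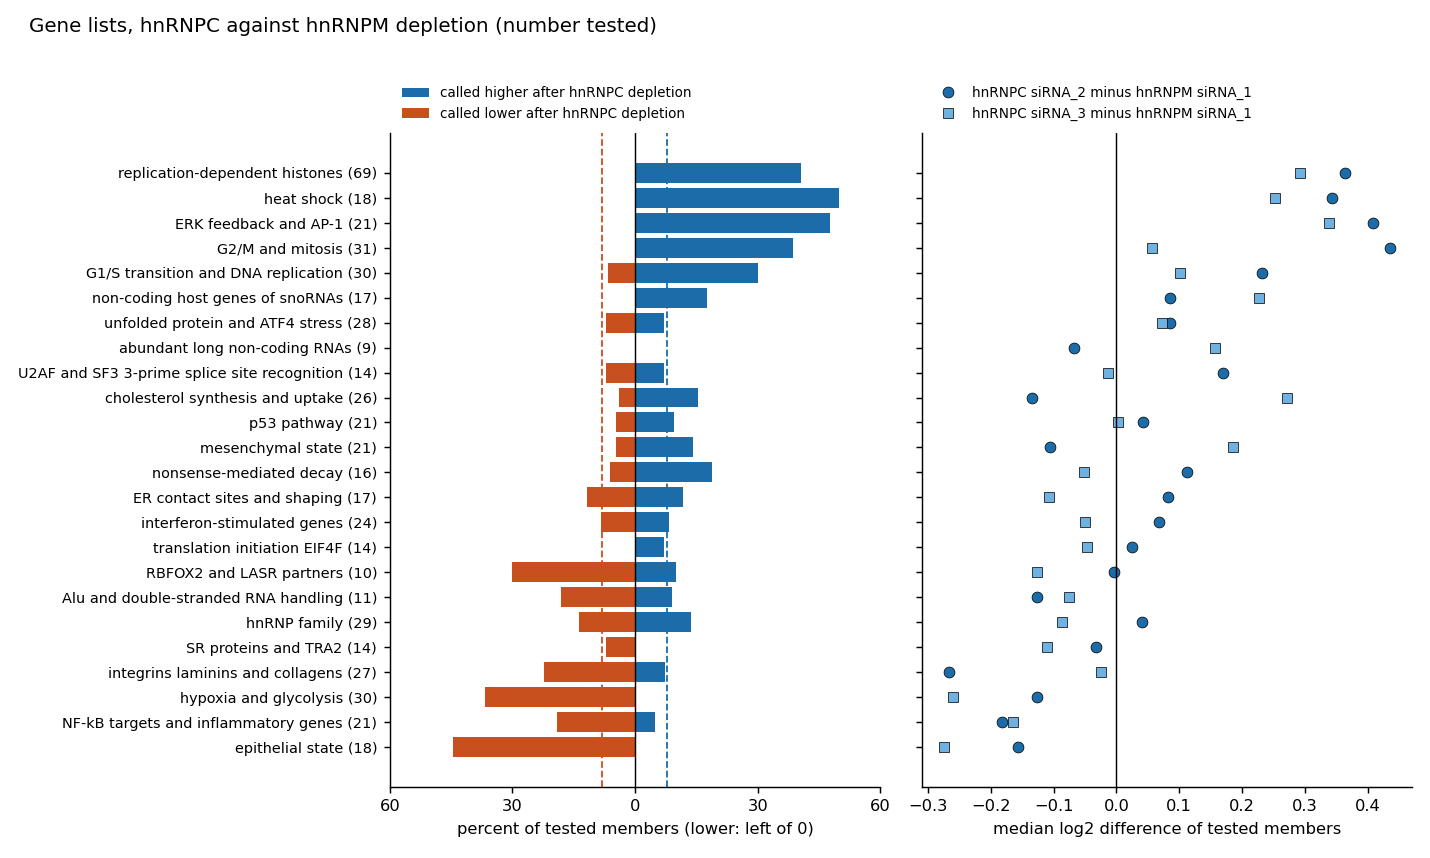
Left, percent of tested members called higher (blue, right of 0) or lower (orange, left of 0) after hnRNPC than after hnRNPM depletion, with dashed lines at 7.79% and 8.03%, the shares of all genes tested. Right, median log2 difference of the tested members for hnRNPC siRNA_2 (dark circles) and hnRNPC siRNA_3 (light squares) against hnRNPM siRNA_1, with the number of tested members in brackets. The medians of the siRNAs lie close together for ERK, heat shock and histone genes and apart for G2/M and cholesterol genes. Close medians do not show that single members were alike, and 7 of 21 ERK members differed between the hnRNPC siRNAs.

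Cholesterol synthesis and uptake genes were the list in which the hnRNPC siRNAs differed most often. Of 26 tested members 19 were called different between hnRNPC siRNA_2 and hnRNPC siRNA_3, beside 19.3% of all genes tested. Against hnRNPM siRNA_1, hnRNPC siRNA_2 gave 3 higher and 8 lower with a median of -0.13, and hnRNPC siRNA_3 gave 12 higher and 0 lower with a median of 0.27. In the average 4 rose (15.4%) and 1 fell (3.85%), beside 7.79% and 8.03% of all genes tested. The median of 0.05 turned to -0.06 with TPM as deposited. INSIG1, which holds the SREBP activator in the endoplasmic reticulum, was at 33.7, 24.8, 43.1 and 38.3 scaled TPM after hnRNPC depletion, against 21.8 and 20.4 after hnRNPM depletion and 30.1 and 30.3 in mock oct (0.68, adjusted p = 0.000506). It was high without overlap in all 4 hnRNPC libraries and was higher with siRNA_3. The calls were 2 higher and 2 lower without hnRNPM siRNA_1 replicate 1, 2 higher and 0 lower without replicate 3, and 1 higher and 1 lower with TPM as deposited.

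Several genes called in the contrast differed in size between the hnRNPC siRNAs, and some of them rested on 1 siRNA. TM4SF1, a tetraspanin-like surface protein, stood at 41.7 and 74.0 scaled TPM with hnRNPC siRNA_2 and 13.8 and 11.1 with hnRNPC siRNA_3, against 11.1 and 11.1 with hnRNPM siRNA_1. Only siRNA_2 stood apart, and the average of 1.19 (adjusted p = 0.000904) describes neither siRNA. Without hnRNPC siRNA_3 replicate 1 the siRNAs no longer had the same sign, and the gene was not called. PINK1, a kinase that marks damaged mitochondria, was at 5.46 and 6.74 with hnRNPC siRNA_2 and 18.1 and 15.4 with hnRNPC siRNA_3, against 17.0 and 19.3 with hnRNPM siRNA_1. It was not called without hnRNPC siRNA_3 replicate 3. ANXA3, a calcium-dependent membrane-binding protein, was at 23.2 and 26.5 with siRNA_2 and 51.9 and 64.2 with siRNA_3, against 67.4 and 89.8, lower than hnRNPM in each. ID1, an inhibitor of basic helix-loop-helix factors, was at 154 and 221 with siRNA_2 and 96.9 and 93.1 with siRNA_3, against 68.3 and 65.5, higher than hnRNPM in each.

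Among integrins, laminins and collagens 2 of 27 tested members rose (7.41%) and 6 fell (22.2%), with a median of -0.14. Over all genes tested 7.79% rose and 8.03% fell, so the share that rose was near that of all genes. Against mock oct the median was -0.11 for hnRNPC depletion and -0.04 for hnRNPM siRNA_1, and with hnRNPM siRNA_3 against mock jan it was 0.13. COL4A1, a basement membrane collagen chain, was at 51.0, 45.0, 49.5 and 44.7 scaled TPM after hnRNPC depletion, against 28.97 and 30.7 after hnRNPM depletion and 38.7 and 38.7 in mock oct (0.65, adjusted p = 0.000106), so that the arms lay on opposite sides of the mock value. ITGB8 was at 3.14, 3.61, 3.69 and 3.89, against 1.76 and 1.62 (0.77, adjusted p = 0.000131). ITGB5 was at 9.48, 8.74, 15.3 and 13.9, against 16.4 and 17.8 (-0.53, adjusted p = 0.00022), lowest with siRNA_2. The lower count was 2 without hnRNPM siRNA_1 replicate 3 and 3 without the block.

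Splicing regulators other than the targets differed little. Of 29 tested hnRNP genes, the targets included, 4 rose and 4 fell (13.8% each, beside 7.79% and 8.03% of all genes), with a median of -0.07. Beside HNRNPM these were HNRNPF (0.18), HNRNPR (0.27) and PTBP2 (0.36) among the higher and, beside HNRNPC, HNRNPH1 (-0.32), SYNCRIP (-0.27) and HNRNPA3 (-0.24) among the lower. The calls were 2 higher and 1 lower without hnRNPM siRNA_1 replicate 1, 1 and 1 without its replicate 3, and 2 and 2 without hnRNPC siRNA_2 replicate 3 or hnRNPC siRNA_3 replicate 1. Without the block the targets alone were called, and with TPM as deposited 1 member was called higher and 3 lower. HNRNPH1 was at 123, 134, 116 and 147 scaled TPM after hnRNPC depletion, against 148 and 177 after hnRNPM depletion and 151 and 170.3 in mock oct, just without overlap, and was not called without hnRNPM siRNA_1 replicate 1 (adjusted p = 0.0724) or replicate 3 (adjusted p = 0.154), or without the block (adjusted p = 0.0911). Of 10 tested RBFOX2 and LASR partners 10% rose and 30% fell, beside 7.79% and 8.03% of all genes. The targets, which the siRNAs lower by design, HNRNPH1 and the helicase DDX17 (-0.37) were called, with a list median of -0.03. Without hnRNPM siRNA_1 replicate 3 only the targets were, and without hnRNPC siRNA_2 replicate 1 the calls were 2 higher and 3 lower. Of 14 SR and TRA2 genes (median -0.11) SRSF12 alone fell (-0.38, adjusted p = 0.00934), lost without hnRNPM siRNA_1 replicate 3 (adjusted p = 0.162), and 2 were called lower without hnRNPC siRNA_2 replicate 1 or with TPM as deposited. The shares of the SR and TRA2 list were 0% higher and 7.14% lower. Among 14 genes of branch point and 3′ splice site recognition SF3B3 rose and SF3A3 fell. That is 7.14% each, near the 7.79% and 8.03% of all genes. SF3A3 was at 3.79, 3.80, 6.75 and 6.73, against 7.52 and 7.34 after hnRNPM depletion and 8.12 and 7.74 in mock oct (-0.47, adjusted p = 0.000105), with the siRNA_2 libraries lowest. The median of this list was 0.05, and -0.06 with TPM as deposited, and 2 were called higher without hnRNPC siRNA_2 replicate 1 or hnRNPC siRNA_3 replicate 3.

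The remaining lists had few calls, and nearly all rested on single libraries. Nonsense-mediated decay genes gave 3 higher (MAGOH, SMG9 and EIF4A3) and 1 lower (SMG1) of 16, with a median of 0.02. Proteins of Alu and double-stranded RNA gave the helicase DHX9 higher and STAU1 and the adaptor MAVS lower of 11, with a median of -0.07. Interferon-stimulated genes gave IFIT2 and IFIT3 higher and DDX60 and HERC6 lower of 24, with a median of -0.00. The p53 pathway gave BBC3, a pro-apoptotic BCL2 family member, and the cytokine GDF15 higher and TP53I3 lower of 21, with a median of 0.03. Genes of the unfolded protein and ATF4 responses gave PSAT1 and HERPUD1 higher and XBP1 and DNAJB9 lower of 28, with a median of 0.11. Contact sites of the endoplasmic reticulum gave ESYT2 and REEP5 higher and PDZD8 and STIM2 lower of 17, with a median of 0.01. Host genes of snoRNAs gave SNHG5, DANCR and EPB41L4A-AS1 higher of 17, with a median of 0.12. SNHG5 was at 80.6, 98.7, 77.9 and 80.9 scaled TPM after hnRNPC depletion, against 48.6 and 54.96 after hnRNPM depletion (0.69, adjusted p = 0.000412). None of 9 abundant long non-coding RNAs was called by limma, and their median was 0.10. Over all genes tested 7.79% were called higher and 8.03% lower. The shares were 18.8% and 6.25% for decay, 9.09% and 18.2% for double-stranded RNA, and 8.33% and 8.33% for interferon. They were 9.52% and 4.76% for p53 and 7.14% and 7.14% for the unfolded protein response. For contact sites they were 11.8% and 11.8%, and for snoRNA hosts 17.6% and 0%. With TPM as deposited the medians turned to -0.07 for decay, -0.08 for p53, -0.01 for the unfolded protein response and for long non-coding RNAs, and -0.10 for contact sites. The median of the decay list was -0.00 with a common total, and that of the contact sites -0.02 with a common total and -0.01 with quantile normalisation.

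The calls of these lists, higher then lower, moved with the library left out. Without hnRNPM siRNA_1 replicate 1 they were 0 and 0 for decay, 0 and 1 for interferon, 1 and 0 for p53, the unfolded protein response and contact sites, and 1 and 0 for snoRNA hosts. Without its replicate 3 they were 0 and 0 for decay, double-stranded RNA, interferon and p53, 1 and 0 for the unfolded protein response and snoRNA hosts, and 1 and 1 for contact sites. Without hnRNPC siRNA_2 replicate 3 they were 1 and 0 for decay and p53, 1 and 1 for interferon and the unfolded protein response, and 2 and 1 for contact sites. Without hnRNPC siRNA_3 replicate 1 they were 1 and 0 for decay and p53, 1 and 1 for interferon, 2 and 1 for the unfolded protein response, and 2 and 0 for contact sites. Without hnRNPC siRNA_2 replicate 1 they were 3 and 0 for decay, 1 and 1 for p53 and contact sites, and 1 and 2 for the unfolded protein response. Without hnRNPC siRNA_3 replicate 3 they were 4 and 0 for decay and p53, 2 and 0 for interferon, 1 and 2 for the unfolded protein response, and 1 and 1 for contact sites. Without either mock oct library they were 2 and 1 for interferon, 1 and 1 for p53, and 4 and 2 for the unfolded protein response. Without the block they were 2 and 0 for decay and interferon, 1 and 1 for double-stranded RNA, p53 and the unfolded protein response, and 2 and 1 for contact sites. With TPM as deposited they were 0 and 1 for decay, 0 and 2 for double-stranded RNA, 1 and 2 for interferon, 1 and 1 for p53, contact sites and snoRNA hosts, and 1 and 3 for the unfolded protein response.

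Single copies of small structured RNAs gave the largest called differences, and the sums of most of their families overlapped between the arms. RN7SKP71, which copies the gene of 7SK RNA, stood at 576, 589.7, 936 and 798 scaled TPM after hnRNPC depletion, against 44.1 and 40.3 after hnRNPM depletion and 57.6 and 41.0 in mock oct (4.04, SE 0.198, adjusted p = 9.9e-07). RN7SL5P, which copies 7SL, the RNA of the signal recognition particle, was at 4857, 4932, 4602 and 4204, against 342 and 412 (3.62, adjusted p = 1.12e-05), and RNU4-82P, a U4 copy, was at 32.0, 30.02, 27.6 and 35.2, against 1.81 and 2.65 (3.32, adjusted p = 8.35e-05). These 3 copies were high in all 4 hnRNPC libraries and near the mock level in the hnRNPM libraries. In the other direction RNU2-38P was at 32.1, 42.3, 45.0 and 48.1, against 204 and 308 (-2.57, adjusted p = 0.000117), and RN7SKP80 at 19.3, 18.2, 39.4 and 34.0, against 118 and 163 (-2.36, adjusted p = 0.00033). RNVU1-1, a variant U1 gene, was at 17.5, 3805, 23.2 and 990.3, against 1667 and 2989.9 (-3.46, adjusted p = 0.04). Its values followed the replicate number more than the siRNA, the groups overlapped, and the difference was -1.05 (adjusted p = 0.575) without hnRNPM siRNA_1 replicate 1. The call was also lost without replicate 1 of hnRNPC siRNA_2 (adjusted p = 0.0952), replicate 1 or 3 of hnRNPC siRNA_3 (adjusted p = 0.112 and 0.0613), either mock oct library (adjusted p = 0.0504 and 0.0503), or the block (adjusted p = 0.276).

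Of 20 families of small structured RNAs, the sums overlapped between the arms in 14, were higher in all 4 hnRNPC libraries than in both hnRNPM libraries in 5, and lower in 1. The share of all genes without such overlap is not given here, so these counts do not set small structured RNAs apart from other genes. All 7SK genes and copies summed to 49344, 49967, 78275 and 71569 scaled TPM after hnRNPC depletion, against 57011 and 59372 after hnRNPM depletion, a ratio of means of 1.07 with overlapping sums. The Y RNA sums were 48496, 47231, 54553 and 57680.4, against 40259 and 51019.9 (1.14), and the U6 sums 36956, 41182, 41527 and 48255, against 38795 and 49122 (0.955), both with overlap. The sums without overlap were those of 7SL, U4, U1, microRNA and tRNA genes and of a group of other small families. This holds for scaled TPM. With TPM as deposited the 7SL, U4, U1 and microRNA sums overlapped between the arms, while the sums of tRNA genes and of the other small families did not. Each sum covers all genes of a family, tested or not. The group of other families held 21 genes with a ratio of 2.13, while its 1 tested gene differed by -0.11. The 7SL sums were 218305, 224448, 240022 and 223214, against 184109 and 215721 (1.13). The U4 sums, to which RNU4-82P belongs, were 74316, 87257, 72732 and 85426, against 61027 and 70129.7 (1.22). The U1 sums were 27144, 24911, 24172 and 41603, against 22564 and 20356 (1.37), and the microRNA sums 1117, 1108, 1211 and 1020.2, against 970.5 and 986 (1.14). The 4 tRNA genes, 2 of them tested, summed to 13.1, 19.1, 13.6 and 18.8, against 25.3 and 35.7 (0.529). Within each replicate number both hnRNPC libraries were above the hnRNPM library in the 7SL, U4, U1 and microRNA sums, and below it in the tRNA sum. With TPM as deposited only the tRNA sum, of these, kept that order throughout. Of the 4 same-numbered comparisons in scaled TPM the hnRNPC library was higher in 2 for 7SK, 3 for Y RNA and 1 for U6. A 2-sided exact permutation test of 4 against 2 libraries, which takes no account of the replicate numbers, cannot give a p under 0.0667, so it decides nothing about these sums. Among single genes, 6 of 25 tested 7SK genes were called higher (24%) and 4 lower (16%). Of 191 tested U6 genes 11 were called higher (5.76%) and 6 lower (3.14%), both under the 7.79% and 8.03% of all genes tested.

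U6 copies show how single genes and sums can part. RNU6-1, a transcribed U6 gene, has the same 107 bases as 6 other tested genes (RNU6-3P and RNU6-4P, RNU6-2, RNU6-5P and RNU6-6P, and RNU6-9). These genes of identical sequence were not moved alike. RNU6-1 was at 7477, 5799, 8441 and 10776 scaled TPM after hnRNPC depletion, against 1852 and 2555 after hnRNPM depletion and 1019 and 1476 in mock oct (1.86, adjusted p = 0.000243). RNU6-5P was at 696, 662, 619.6 and 736, against 136 and 127 (2.36, adjusted p = 0.000299), and RNU6-6P differed by 2.08, while RNU6-4P, the most abundant, was at 16079, 20144, 18071 and 18142, against 19789.8 and 21528 (-0.19, adjusted p = 0.623). RNU6-3P was at 343, 459, 394 and 309, against 199.6 and 11104, so that 1 hnRNPM library held most of it. Of the 7 genes 3 were called higher and 4 were not called, with differences between -2.00 and 2.36. Their sum was 29132, 32178, 32283 and 38360.0 in the hnRNPC libraries, 26979.9 and 42287 in the hnRNPM libraries and 18538 and 21549.6 in mock oct. The hnRNPC sums lay between the hnRNPM sums. Reads from the RNA itself cannot tell these 7 genes apart, and the rule by which they were divided among genes is not given in the sources used here.

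Other U6 copies differed between the arms in both directions. RNU6-36P was at 2702, 2647, 3172 and 3778 scaled TPM after hnRNPC depletion, against 245 and 375 after hnRNPM depletion and 282 and 194 in mock oct (3.32, adjusted p = 1.4e-05), and RNU6-15P at 504, 502, 487 and 545, against 39.9 and 48.2 (3.51, adjusted p = 2.72e-05). RNU6-11P was at 211, 184, 265 and 366, against 37.2 and 52.4 (2.46, adjusted p = 0.00292). RNU6-8, in contrast, was at 110.0, 151, 127 and 201, against 211 and 389 (-0.99, adjusted p = 0.0129). RNU6-98P was at 101, 106, 95.5 and 143, against 144 and 1172 (-1.89, adjusted p = 0.019), a difference that rested on hnRNPM siRNA_1 replicate 3, without which it was -0.75 (adjusted p = 0.385). It was also not called without hnRNPC siRNA_2 replicate 3 (adjusted p = 0.0668) or hnRNPC siRNA_3 replicate 3 (adjusted p = 0.0625), or without the block (adjusted p = 0.208). Of the 81 tested U6 genes with the length of RNU6-1 in the annotation, 28 had 1 to 5 differences and 46 more than 5.

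**Figure D5:**
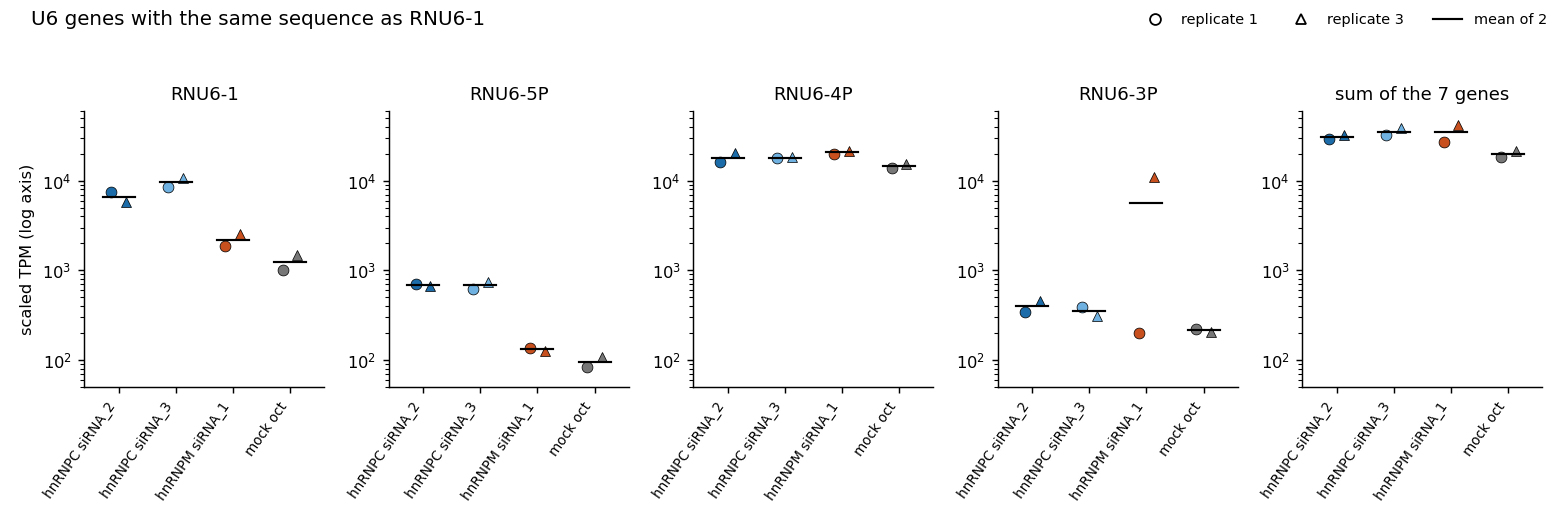
Scaled TPM (log axis) of 4 U6 genes with identical sequence and of the sum of all 7 such genes in hnRNPC siRNA_2, hnRNPC siRNA_3, hnRNPM siRNA_1 and mock oct cells, with 1 symbol per library and a line at the mean of 2. RNU6-1 and RNU6-5P are high in the hnRNPC libraries, RNU6-3P is high in 1 hnRNPM library at 11104, and the sums of the hnRNPC and hnRNPM libraries overlap.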

How the data were processed

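The study measured ribodepleted total RNA by TGIRT-seq, in which a thermostable group II intron reverse transcriptase copies fragmented RNA, per the labels' protocols. The authors deposited TPM values per gene for 24 libraries and 57773 genes in 1 table, with no counts. Per the submitters' processing notes the tools included SAMtools 0.1.19.0, Bowtie2 2.1.0.0, TopHat2 2.0.9, Trimmomatic 0.38 and FastQC 0.10.1, with hg19. The tool and annotation behind the TPM, strand use and the treatment of reads that match several genes are not given in the sources used here, so overlapping, antisense and copied genes are uncertain.

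Groups and replicate numbers were taken from the labels, and the siRNA libraries, whose titles name no month, were assigned to mock sets. TPM was divided by median-ratio factors and 1 was added before log2, and genes that reached 1 TPM in 2 or more libraries were kept. limma 3.58.1 in R 4.3.3 was fitted to all 24 libraries in 12 groups with an empirical Bayes variance trend and the replicate number within each mock set as a block. The fit had 8 residual and 3.29 prior degrees of freedom. It was tested on simulated data. The contrast is defined as paired by replicate number. Deviations of same-numbered October libraries from their group means correlated at 0.179 to 0.355 over the 6 pairs of groups, so the pairing was kept. No 2 libraries were identical.

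Named genes were the targets, the 12 called genes in each direction with the largest smaller effect of the 2 hnRNPC siRNAs (mean of at least 5 scaled TPM, small RNAs and clone-based symbols left out), 4 small RNA genes in each direction, up to 3 called members of each gene list, and up to 3 in each direction that differed between the hnRNPC siRNAs. Other members named are called members of a list, or were named after their values were seen. The libraries compared and the lists were chosen with earlier results of these data known, and the count of members of each list was recomputed under each alternative after the values were seen. Some genes and sequences are not reported here. Copies were compared through GENCODE 29 transcripts with Biopython 1.88, the promoter came from RefSeq, and figures were drawn with matplotlib 3.10.9. Other scalings, pseudocounts, filters, blocks, sets of libraries and GC corrections were tried as alternatives.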

Additional observations from a re-analysis of the deposited data

Results flagged for a closer look

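Among the genes named by rule and reported here, 31 differed between the 2 hnRNPC siRNAs by limma (adjusted p under 0.05), so their value in the contrast averages unequal effects. The rule itself chose up to 3 genes in each direction for this difference, so part of the count was fixed in advance. The alternatives below count 88 named genes. Beside this, 19.3% of all genes tested differed, and 884 of the 2688 called genes. The difference, hnRNPC siRNA_2 minus hnRNPC siRNA_3 on the log2 scale, was positive for TM4SF1 (2.08), IGFBP6 (0.99), ID1 (0.95), CDC20 (0.74), FMO5 (0.50), SMG9 (0.50), IFIT3 (0.47), PDZD8 (0.44), GDF15 (0.41), ESYT2 (0.40), BBC3 (0.37), HSPH1 (0.33), EIF4A3 (0.23) and SF3B3 (0.21). It was negative for PINK1 (-1.32), ANXA3 (-1.18), EBF4 (-1.09), MACROD1 (-0.79), MAL2 (-0.78), CDS1 (-0.72), SF3A3 (-0.69), IL32 (-0.64), DANCR (-0.63), ITGB5 (-0.62), TGFBI (-0.56), EBP (-0.50), INSIG1 (-0.48), TMEM14D (-0.47), DDX17 (-0.32), EGLN1 (-0.27) and EIF4G3 (-0.25). HSF2, ZNF548, LINC00910, DUSP6, SOD2 and BNIP3 were not among them.

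In 5 genes 1 of the 4 hnRNPC libraries stood far from the other 3, by the gap to its neighbour as a share of the whole range. The share was 0.982 for MCM7, 0.916 for HIST1H3A, 0.882 for EEF1A1P22, 0.855 for SNHG5 and 0.844 for MAGOH, and in all 5 the library apart was hnRNPC siRNA_2 replicate 3, high in all but EEF1A1P22. Chance flags about 1 in 20 groups in this way.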

How the results depend on the processing

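The count of called genes in the contrast was 2688. It was 1710 with TPM as deposited, 1397 without the replicate block (1396 of them among the 2688), 990 with the 8 October libraries alone, 590 with the 6 siRNA libraries alone, 4254 with hnRNPC siRNA_2 alone and 1483 with hnRNPC siRNA_3 alone, and ranged from 645 to 2712 with 1 library left out. The other alternatives stayed within 1.5 times. Without the block, hnRNPC siRNA_2 against hnRNPM siRNA_1 gave 2570 and hnRNPC siRNA_3 gave 665, the hnRNPC siRNAs differed in 1880 genes, and against their mock sets hnRNPC depletion gave 1096, hnRNPM siRNA_1 115 and hnRNPM siRNA_3 48. With TPM as deposited, hnRNPC siRNA_2 against hnRNPM siRNA_1 gave 2238, and hnRNPM siRNA_1 and hnRNPM siRNA_3 gave 96 and 47 against mock. HNRNPC and HNRNPM kept direction and call in all 24 alternatives. None of the 88 named genes changed direction, but 23 lost the call without the block, 27 and 29 without hnRNPM siRNA_1 replicate 1 or 3, 18 with TPM as deposited, 35 with the 6 siRNA libraries alone, 33 with hnRNPC siRNA_3 alone, 28 with the October libraries alone and none with the GC correction and the block. Depth is unknown, so small differences of low genes cannot be given a counting error, and 2 hnRNPM libraries limit every comparison.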
